A study of Rattus norvegicus with 15 samples.

Results

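Oxidative phosphorylation is carried out in the inner mitochondrial membrane by complexes built from many protein subunits. Complex I takes electrons from NADH and complex III from ubiquinol, complex IV hands them to oxygen, and complex V, the ATP synthase, uses the proton gradient that the others build. A small catalytic core, partly encoded by mitochondrial DNA, does the chemistry, and nuclear genes supply the rest of the core and the supernumerary subunits that stabilise and regulate it. In liver this machinery supplies ATP for gluconeogenesis and urea synthesis and oxidises the products of fat breakdown.

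The genes described here are the nuclear-encoded subunits of complexes I, III, IV and V in rat liver RNA-seq. They were chosen by gene name alone, as every symbol that starts with Ndufa, Ndufb, Ndufc, Ndufs, Ndufv, Uqcr, Cox4 to Cox8 or Atp5, without the Ndufaf assembly factors. The rule found 83 symbols among 26403 genes of the table. Of these, 36 belong to complex I, 8 to complex III, 17 to complex IV and 15 to complex V, and the other 7 carry such a name without being a structural subunit. Ndufa4, which bears a complex I name, is counted with complex IV, where it is now placed.

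All livers came from Wistar rats and were collected 24 hours into refeeding, the first day on which the animals regained weight after a period of weight loss and maintenance. Rats of the group called sedentary here had not been exercised and were refed ad libitum. Rats of the exercised group had been exercised while losing weight and keeping it off, and were also refed ad libitum. Rats of the gap-matched group were sedentary and were refed a diet matched to the energy gap, which the labels do not define further. Each group had 5 libraries. The labels number the libraries and do not say that each came from its own animal, so the spread behind each p-value is that of the samples and may be technical.

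The values are deposited FPKM, in which the fragments of a gene are divided by its length and by the fragments mapped in the library. Read totals are not part of the table. Relative depth was estimated from genes averaging under 0.3 FPKM. The ratio of their values in the first sedentary library to those in each library was binned at 0.04 (log2). The commonest ratio put the depth of the libraries at 0.651 to 1.04 times that of the first sedentary library. Differences are on the log2(FPKM + 1) scale, which slightly understates the change of low genes, with a two-sided limma test over the 11216 genes that averaged 1 FPKM or more and Benjamini-Hochberg adjustment over all of them. A difference was called at an adjusted p under 0.05. All 10 hepatocyte markers were tested genes, and their summed FPKM ranged from 5.26e+04 to 7.12e+04 per library. None of 12 skeletal and heart muscle markers reached the mean of 1 FPKM, their sum staying between 0.7304 and 3.893, and Myh7 and Myl2 were listed at 0. In whole liver, fewer cells of a type and less RNA per cell cannot be told apart.

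A mean of at least 1 FPKM was reached by 71 of the 83 symbols: 34 of complex I, 8 of complex III, 10 of complex IV, 15 of complex V and 4 of the others. These 71, which are 67 subunits and 4 symbols that are no structural subunit, are called the tested genes of the set. The 12 that did not are of different kinds. Ndufa1, Ndufb11 and Cox7b, subunits that every respiring cell needs, were listed at 0 in all 15 libraries. The isoforms Cox8c and Ndufa4l2, and the copies Cox6c-ps1, Ndufb3l and Ndufb4l1, were also listed at 0. Cox4i2, Cox6a2, Cox6b2 and Cox8b, which replace their liver counterparts in other tissues such as lung, heart, skeletal muscle or testis, averaged between 0 and 1 FPKM.

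Ndufa1, Ndufb11 and Cox7b have their chromosome in common, which was looked up after their values were seen. RefSeq (GRCr8) places 81 of the 83 symbols on a chromosome, 3 of them on X, and these are the 3. Of 619 named protein-coding genes that RefSeq places on X, 547 were listed at 0 in all libraries, or 88.4%. On the numbered chromosomes 3067 of 17485 such genes were at 0, or 17.5%, and no numbered chromosome exceeded 26.7%. The zeros of these subunits are therefore not read as a lack of expression. The mitochondrially encoded core subunits cannot be set beside the nuclear ones either, because the 9 of 13 such genes in the table, among them Mt-co2, Mt-co3 and Mt-atp6, were all listed at 0.

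All 83 symbols together made up 2.346% to 3.174% of all FPKM in a library. In complex I the highest mean was that of Ndufb9, a supernumerary subunit, at 494.3 FPKM, and the lowest that of Ndufb3, another supernumerary subunit, at 29.0 FPKM. The 7 core subunits of complex I, among them those that hold the flavin and the iron-sulfur clusters, had means from 55.51 FPKM for Ndufs1 to 290.6 FPKM for Ndufv2. In complex III the small subunit Uqcrq reached 1402 FPKM, while Uqcrc2, a large core protein, averaged 136.9 FPKM. In complex IV the means ran from 49.71 FPKM for Cox7a2 to 865.5 FPKM for Cox7c. In complex V they ran from 7.152 FPKM for Atp5h, subunit d of the peripheral stalk, to 1074 FPKM for Atp5b, the catalytic beta subunit. Levels of subunits from the same complex, which holds its nuclear subunits in fixed ratios, thus differed widely in FPKM.

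**Figure D1:**
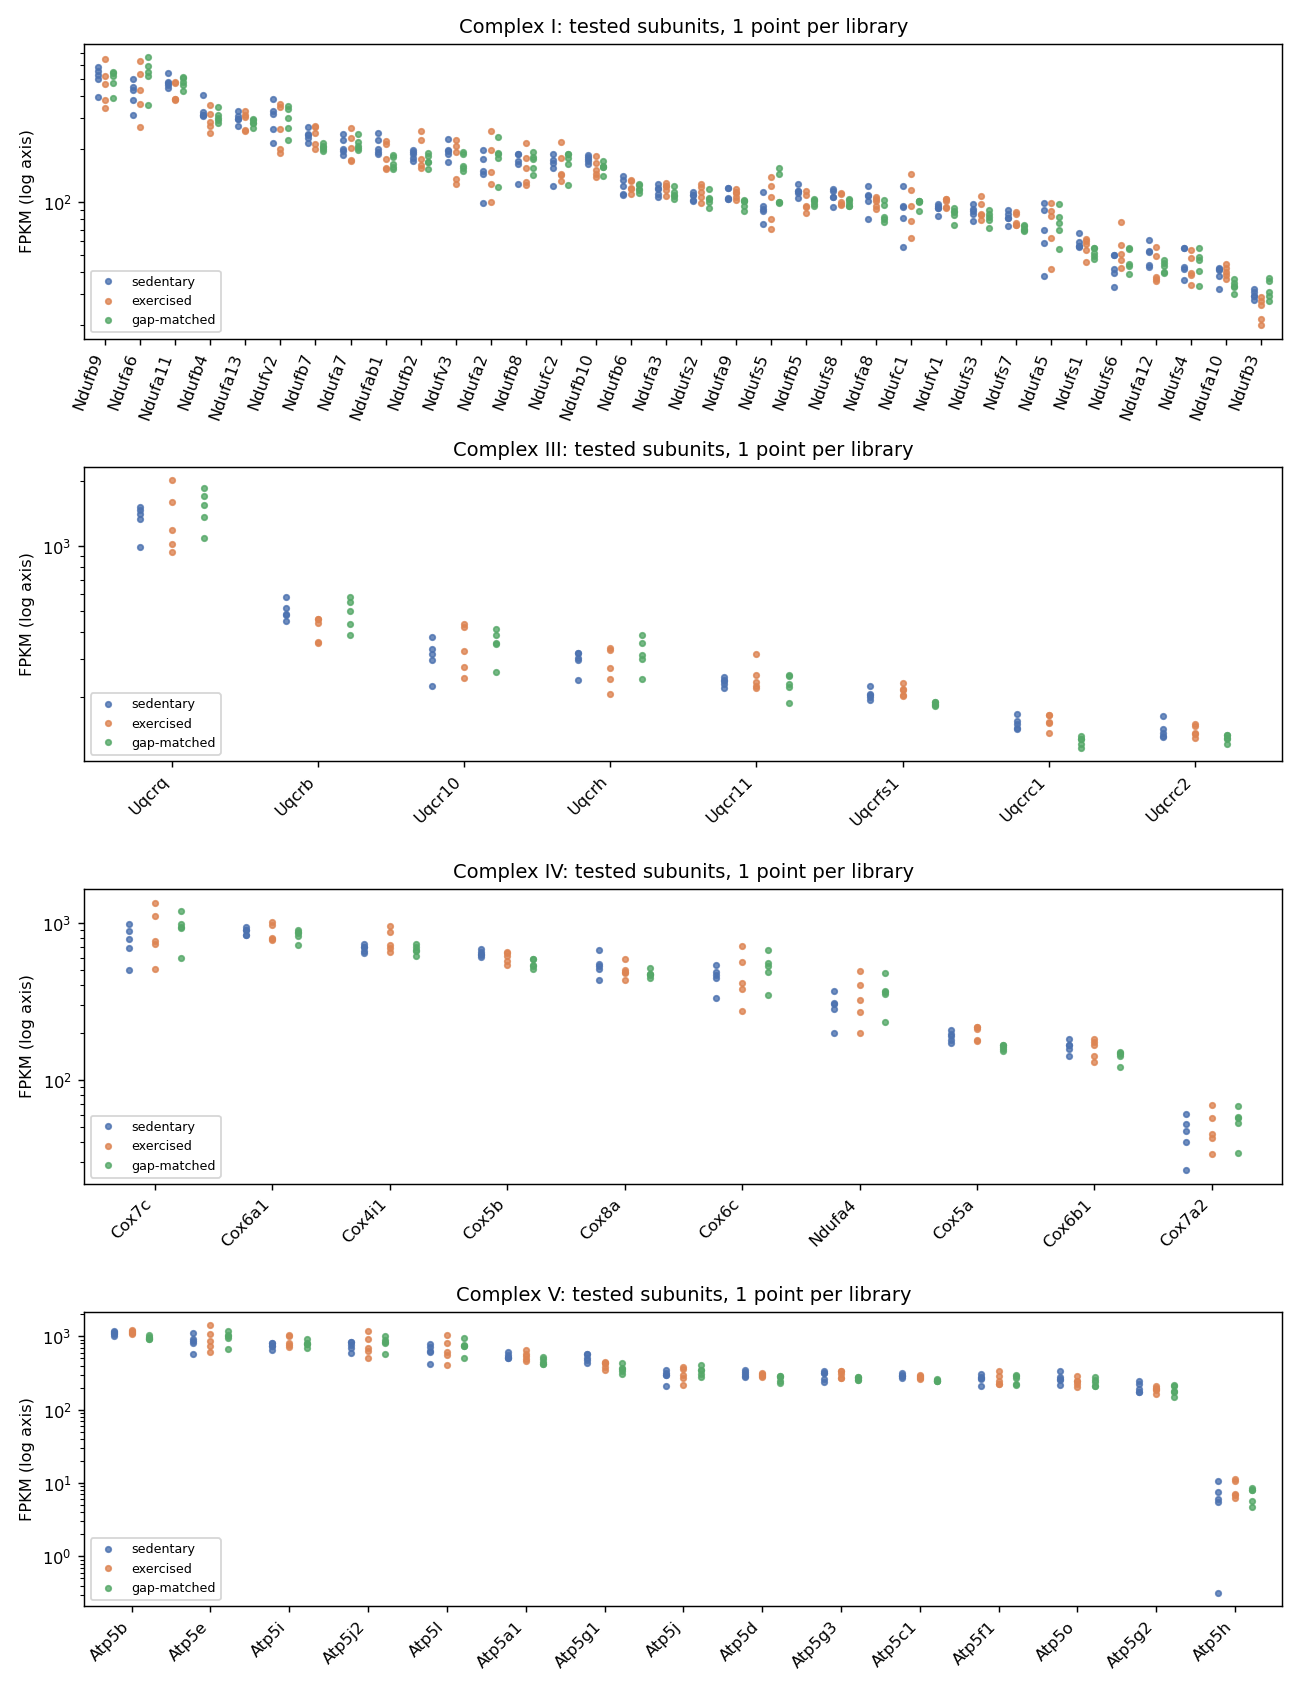
FPKM of each tested subunit in each of the 15 libraries, on a log axis, with 1 panel per complex, genes ordered by mean level and colours for the 3 groups. The groups lie on top of each other for most genes, and Atp5h stands below all other subunits of complex V, with 1 sedentary library at 0.3161 FPKM.

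Where a subunit exists as a liver and a tissue-specific isoform, the liver form was the higher one by far in FPKM. Cox4i1, the ubiquitous form of subunit 4, averaged 714.2 FPKM and Cox4i2 0.4769 FPKM. Cox6a1 averaged 862.9 FPKM beside 0.1082 FPKM for the heart and muscle form Cox6a2. Cox6b1 stood at 154.4 FPKM and Cox6b2, the testis form, at 0.431 FPKM. Cox8a had 503.1 FPKM, and Cox8b 0.1209 FPKM. Cox7a2l2, a copy of a subunit relative, was listed at 458.4 FPKM, above Cox7a2 itself at 49.71 FPKM and above Cox7a2l, a factor in supercomplex assembly, at 85.67 FPKM. Reads can be shared between genes of like sequence. The sequences of these genes were not compared, so the split between Cox7a2 and the genes named after it is uncertain. Other subunits, Atp5h among them, may carry the same uncertainty, since copies elsewhere in the genome were not counted. The remaining symbols that are no structural subunits were Atp5s at 3.53 FPKM and Atp5sl at 22.63 FPKM, which RefSeq names Dmac2l and Dmac2.

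Subunit c forms the rotating ring of the ATP synthase and is encoded by Atp5g1, Atp5g2 and Atp5g3, whose mature proteins are the same and whose import sequences differ. The only called difference among the 71 tested genes of the set was in Atp5g1. Uqcrc1, a core protein of complex III, came next in gap-matched against sedentary livers. The promoter windows of these 4 genes are shown for that reason, from 250 bases before to 50 after the start of transcription in RefSeq (GRCr8), 5′ to 3′ on the strand of the gene. Capitals mark matches to GCATGCGC, the letters bound by NRF1, to AAGATGGC, bound by YY1, or to TCAAGGTCA, bound by the estrogen-related receptors, on either strand. Atp5g1 lies at chr10:81523296-81523595 on the minus strand, Atp5g2 at chr7:135678169-135678468 on the minus strand, Atp5g3 at chr3:79220615-79220914 on the minus strand and Uqcrc1 at chr8:118467973-118468272 on the plus strand.
Atp5g1: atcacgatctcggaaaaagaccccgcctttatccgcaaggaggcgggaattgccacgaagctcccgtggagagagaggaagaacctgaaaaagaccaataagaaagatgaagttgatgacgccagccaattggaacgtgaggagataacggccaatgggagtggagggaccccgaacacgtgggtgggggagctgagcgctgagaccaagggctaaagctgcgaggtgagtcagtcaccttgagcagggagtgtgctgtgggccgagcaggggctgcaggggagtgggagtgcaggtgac
Atp5g2: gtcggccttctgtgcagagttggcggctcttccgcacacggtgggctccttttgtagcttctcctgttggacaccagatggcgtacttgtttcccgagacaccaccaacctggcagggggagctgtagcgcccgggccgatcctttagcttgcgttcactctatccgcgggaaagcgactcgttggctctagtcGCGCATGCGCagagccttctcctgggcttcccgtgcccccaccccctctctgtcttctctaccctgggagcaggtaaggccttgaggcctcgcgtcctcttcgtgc
Atp5g3: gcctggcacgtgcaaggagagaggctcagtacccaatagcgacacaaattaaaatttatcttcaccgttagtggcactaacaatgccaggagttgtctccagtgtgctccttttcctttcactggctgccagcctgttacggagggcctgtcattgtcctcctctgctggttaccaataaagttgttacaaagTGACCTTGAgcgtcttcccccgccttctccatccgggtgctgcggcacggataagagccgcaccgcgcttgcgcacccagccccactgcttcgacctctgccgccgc
Uqcrc1: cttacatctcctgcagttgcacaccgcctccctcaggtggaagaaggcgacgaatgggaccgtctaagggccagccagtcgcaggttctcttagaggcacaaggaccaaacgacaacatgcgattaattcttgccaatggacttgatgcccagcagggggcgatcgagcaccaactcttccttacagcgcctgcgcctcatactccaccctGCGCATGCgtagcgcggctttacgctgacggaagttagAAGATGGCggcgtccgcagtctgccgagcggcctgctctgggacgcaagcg
The window of Atp5g1 holds none of the letters searched. That of Atp5g2 holds the NRF1 letters on both strands, overlapping in 1 stretch, that of Atp5g3 the receptor letters on the opposite strand, and that of Uqcrc1 the NRF1 letters, on the opposite strand, and the YY1 letters. A match is a description of the sequence and no sign of binding.

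Exercise before refeeding was compared first, with ad libitum refeeding in both groups. No subunit was called in either direction in exercised against sedentary livers. Over all genes tested, 2.51% were called higher and 3.26% lower. Without adjustment 1 of the 71 tested genes of the set was higher and 4 were lower at p under 0.05, or 1.41% and 5.63%, beside 10.4% and 10.6% of all genes. No subunit had groups that did not overlap, beside 3.15% of all genes with every exercised library above every sedentary one and 3.66% with every one below. The median difference of the 71 was -0.01 (log2), and that of all genes 0.01. In all, 33 were positive and 38 negative, with 13 of 34 positive in complex I, 4 of 8 in complex III, 5 of 10 in complex IV and 8 of 15 in complex V.

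In complex I the smallest p was that of Ndufb3, at 24.9 ± 3.78 FPKM (SD, n = 5) in exercised and 29.9 ± 1.63 FPKM in sedentary livers, a difference of -0.27 ± 0.11 (log2, SE) with an adjusted p of 0.161 in the limma test. In complex III it was Uqcrb, a small subunit next to the ubiquinone site, at 416.0 ± 52.3 FPKM against 501.7 ± 50.9 FPKM, with a difference of -0.27 ± 0.12 and an adjusted p of 0.21 (limma). A second, lower row of Uqcrb, left out of the set, was nearly level, at 26.84 ± 3.49 FPKM against 27.63 ± 4.08 FPKM. In complex IV the smallest p was that of Cox4i1, at 779.8 ± 130.2 FPKM against 687.8 ± 32.9 FPKM, with a difference of 0.17 and an adjusted p of 0.393 (limma). Exercised libraries 3 and 5, at 869.3 and 961.3 FPKM, held the high values of Cox4i1, and the other 3 lay between 654.2 and 723.1 FPKM. Among the symbols that are no subunits it was Atp5s, at 0.24 and an adjusted p of 0.243 (limma). None of these 4 passed.

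These comparisons bound the size of a change for most of the set. The standard error of a difference had a median of 0.1157 (log2) and ranged from 0.0678 to 0.4205. The 95% interval of the exercised against sedentary difference stayed within 1.5-fold in either direction for 63 of the 71 tested genes of the set. In gap-matched against sedentary livers it did so for 56, and in exercised against gap-matched livers for 58. Within 2-fold lay 70 in each comparison. The exception in all of them was Atp5h, at 5.49, 10.6, 0.3161, 6.08 and 7.66 FPKM in the 5 sedentary libraries. The third of these lay far below the other 4.

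Gap-matched livers differed from sedentary livers in diet alone, as far as the labels say. Here 1 subunit was called lower, Atp5g1, and none higher, while 2.23% of all genes were called lower and 0.82% higher. The lower share of the all-gene calls was 73.1% and moved to 84.1% with libraries scaled to the same sum, 59.69% with median of ratios scaling and 59.45% with quantile normalization. Atp5g1 was at 578.8, 503.7, 429.0, 483.1 and 579.0 FPKM in the sedentary libraries. In the gap-matched libraries it was at 358.5, 375.2, 333.7, 439.5 and 305.2 FPKM. Only gap-matched library 4 reached into the sedentary range, above the lowest sedentary library. The means were 514.7 ± 64.6 and 362.4 ± 50.6 FPKM (SD, n = 5), a difference of -0.51 ± 0.12 (log2, SE) with an adjusted p of 0.0267 in the limma test. Leaving out sedentary library 1, 2 or 5, or gap-matched library 1, 2, 3 or 5, each ended the call at adjusted p-values from 0.0504 to 0.069 (limma), with differences of -0.45 to -0.52.

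Exercised livers held Atp5g1 at 344.4, 437.7, 441.7, 431.6 and 380.6 FPKM, a mean of 407.2 ± 42.9 FPKM. These values lay in or below the lower part of the sedentary range and reached across most of the gap-matched one. The difference from sedentary was -0.33 with an adjusted p of 0.105, and that from gap-matched 0.17 with an adjusted p of 0.479, both by limma and neither called. The other 2 genes of subunit c were flatter. Atp5g2 averaged 202.5 ± 31.4 FPKM in sedentary livers, 189.5 ± 18.1 FPKM in exercised ones and 186.7 ± 26.7 FPKM in gap-matched ones. Atp5g3 averaged 296.4 ± 42.7, 303.6 ± 34.6 and 268.9 ± 14.1 FPKM in the same order. Neither was called in any comparison. Whether Atp5g1 changed more than its partners was not tested.

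**Figure D2:**
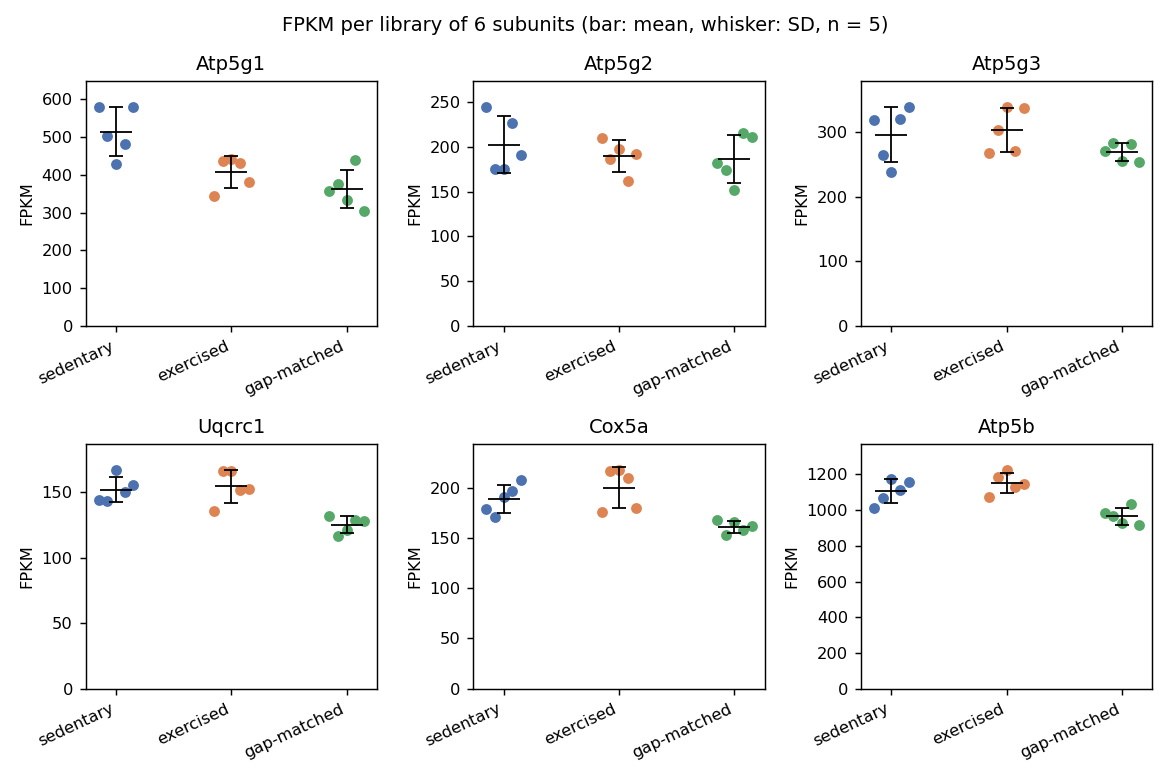
FPKM per library of Atp5g1, Atp5g2, Atp5g3, Uqcrc1, Cox5a and Atp5b in the 3 groups, with the mean as a bar and the SD as a whisker (n = 5). Gap-matched values of Uqcrc1 lie below those of both other groups, and the sedentary values of Atp5g1 lie above most others.

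Uqcrc1 had the smallest p among the subunits that were not called. It stood at 144.4, 143.2, 167.2, 150.5 and 155.6 FPKM in sedentary libraries and at 132.2, 116.7, 121.2, 128.9 and 128.1 FPKM in gap-matched ones, with no overlap. The difference was -0.28 ± 0.08 (log2, SE) with an adjusted p of 0.0656 (limma), and with libraries scaled to the same sum it passed, at -0.35 and an adjusted p of 0.0345. Atp5c1, the gamma subunit that forms the central stalk within the catalytic head, was at 273.8 to 315.3 FPKM in sedentary and 245.8 to 260.7 FPKM in gap-matched livers, a difference of -0.22 with an adjusted p of 0.096 (limma). Cox5a, a matrix-side subunit of complex IV, was at 171.4 to 207.6 FPKM and 153.0 to 167.4 FPKM, a difference of -0.23 with an adjusted p of 0.167 (limma). Ndufab1, the mitochondrial acyl carrier protein that is also a complex I subunit, was at 187.0 to 249.0 FPKM and 155.2 to 185.1 FPKM, a difference of -0.32 with an adjusted p of 0.162 (limma), and with libraries scaled to the same sum it just passed, at -0.39 and an adjusted p of 0.04997 (limma).

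In all, 9 of the 71 tested genes of the set, or 12.7%, had every gap-matched library below every sedentary one, beside 4.56% of all genes. None had every gap-matched library above, beside 1.47% of all genes. The 9 were Uqcrc1, Uqcrfs1, Atp5c1, Cox5a, Cox5b, Ndufab1, Ndufa9, Ndufb5 and Ndufs1. Of these, 8 had an unadjusted p under 0.05, Uqcrfs1 missing it at 0.0505, and 16 of the 71 were lower at that level, or 22.5%, and none higher, beside 12% and 5.75% of all genes. How far the share with every gap-matched library below every sedentary one stood from that of all genes differed with the scaling. With libraries scaled to the same sum it was 14 of 71, or 19.7%, beside 6.62%, and with quantile normalization 6 of 71, or 8.45%, beside 3.27%. With median of ratios scaling it was 2 of 71, or 2.82%, beside 2.99%. The median difference of the 71 was -0.05 (log2), and that of all genes -0.03.

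Ordered by role, the signs fell unevenly in gap-matched against sedentary livers. All 7 tested core subunits of complex I were negative, with a median of -0.11 (log2), under the deposited scaling, and 6 of 7 with median of ratios scaling. All 3 of complex III, Uqcrc1, Uqcrc2 and the Rieske iron-sulfur protein Uqcrfs1, were negative at a median of -0.14, and remained negative under each of the 3 other scalings. Uqcrc1 and Uqcrc2 are counted as core by their name of core proteins, not for a part in catalysis. The F1 head of complex V is counted here with its central stalk. In it Atp5a1, Atp5b, Atp5c1 and Atp5d were negative and Atp5e, the small epsilon subunit, positive, at a median of -0.22. The count of signs was the same under each scaling. Among 7 subunits of the peripheral stalk and membrane part of complex V, 5 were positive at a median of 0.15, and 6 with median of ratios scaling. Among 5 supernumerary subunits of complex III, 3 were positive at a median of 0.10, and 4 with median of ratios scaling. The remaining roles did not follow a split of core against other subunits. Among 27 supernumerary subunits of complex I, 17 were negative at a median of -0.05, and 14 with median of ratios scaling. Among 10 subunits of complex IV, 6 were negative at a median of -0.05, and 5 with median of ratios scaling. All 3 genes of the c-ring were negative at a median of -0.13. Of all 11216 genes, 4800 were positive. Apart from Atp5g1, none of these differences passed the test, and the roles were not tested against each other.

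**Figure D3:**
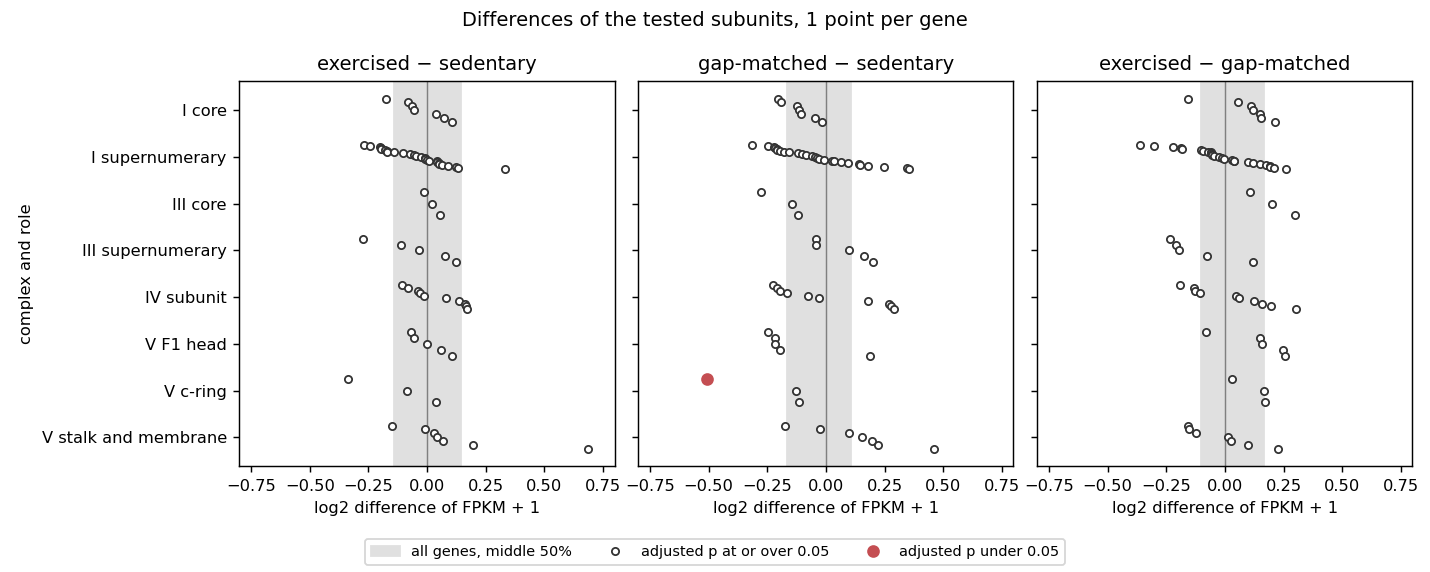
Log2 difference of each tested subunit in the 3 comparisons, 1 point per gene, by complex and role, with the middle 50% of all genes as a grey band. The filled point is Atp5g1 at -0.51, the only called one, and in the middle panel the core rows lie left of 0 and most of the stalk and membrane row right of it.

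Exercised and gap-matched livers differed in exercise and in diet. No subunit was called in this comparison, where 0.687% of all genes were called higher in exercised livers and 0.214% lower. The lower share of the all-gene calls was 23.76%, and 40.7% with median of ratios scaling or 35.87% with quantile normalization. Without adjustment 10 of the 71 tested genes of the set were higher and 1 lower at p under 0.05, or 14.1% and 1.41%, beside 11.2% and 5.28% of all genes. In 7 of the 71, or 9.86%, every exercised library lay above every gap-matched one, beside 2.27% of all genes, and in none below, beside 1.04%. With libraries scaled to the same sum and with median of ratios scaling it was 4 of 71, or 5.63%, beside 1.9% and 2.16%, and with quantile normalization 5 of 71, or 7.04%, beside 2.21%. The median was 0.04 (log2) for the 71 and 0.04 for all genes. With median of ratios scaling it turned to -0.01 for the 71, with 34 positive and 37 negative, and was -0.0012 for all genes. With libraries scaled to the same sum it was 0.09 and 0.08.

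The 7 were Uqcrc1, Uqcrfs1, Cox5a, Atp5b, Atp5c1, Ndufv1 and Ndufa9. Uqcrc1 was at 136.2, 166.1, 166.2, 151.7 and 153.0 FPKM in exercised libraries, a difference of 0.30 ± 0.08 from gap-matched with an adjusted p of 0.082 (limma). Cox5a was at 175.6, 217.0, 217.8, 210.2 and 180.0 FPKM, against 167.4, 153.0, 165.6, 157.8 and 161.9 FPKM in gap-matched libraries, with a difference of 0.31 ± 0.08 and an adjusted p of 0.096 (limma). Atp5b was at 1074, 1185, 1225, 1129 and 1149 FPKM, against 985.4, 964.3, 925.7, 1037 and 913.7 FPKM, with a difference of 0.26 ± 0.08 and an adjusted p of 0.134 (limma). Ndufb3 went the other way, with a difference of -0.36 ± 0.11 and an adjusted p of 0.123 (limma). Its 27.5, 20.05, 28.9, 21.9 and 26.1 FPKM in exercised libraries overlapped 31.1, 35.7, 27.6, 37.3 and 29.3 FPKM in gap-matched ones. The comparison uses the same gap-matched libraries as the one before, so low gap-matched values enter both.

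Added up by complex, the groups were close. Complex I summed to 5629 ± 553.5 FPKM in the sedentary group, 5442 ± 897.9 FPKM with exercise and 5523 ± 414.4 FPKM with the gap-matched diet (SD, n = 5). Complex III summed to 3188 ± 338.9, 3147 ± 671.5 and 3349 ± 513.4 FPKM in that order. Complex IV summed to 4660 ± 439 FPKM, 4860 ± 894.1 and 4708 ± 511.6 FPKM. Complex V summed to 7083 ± 662.5, 7277 ± 1081 and 6948 ± 675.6 FPKM. The differences between these means were smaller than the spread within the exercised group for each complex. In exercised livers each sum fell into 2 high libraries and 3 lower ones.

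**Figure D4:**
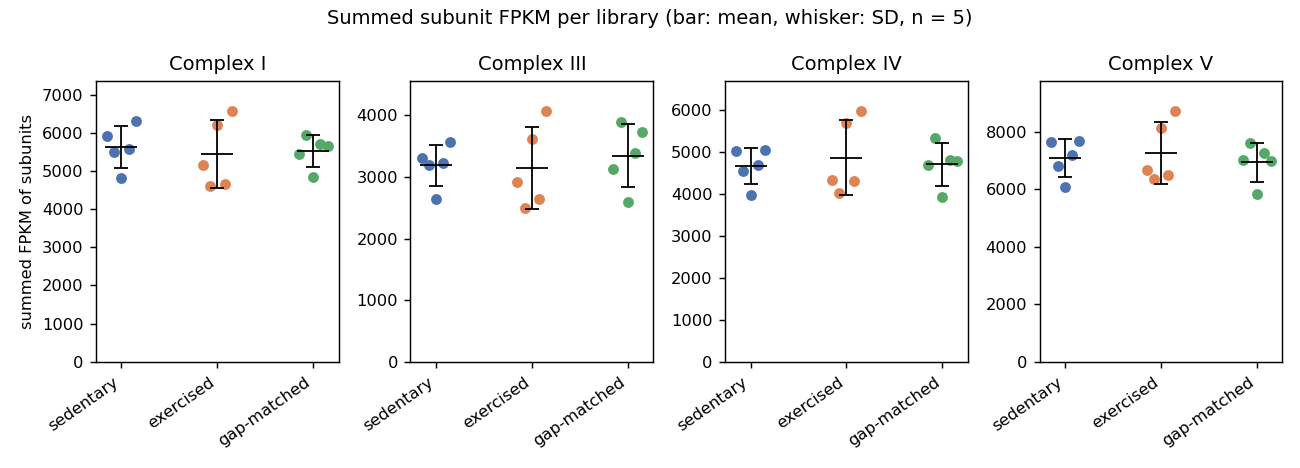
Summed FPKM of the subunits of complexes I, III, IV and V in each library, with the mean as a bar and the SD as a whisker (n = 5). In each panel exercised libraries 3 and 5 stand above the other 3, and the ranges of the 3 groups overlap.

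The spread of a subunit between libraries of a group differed by role. The SD within groups had a median of 0.203 (log2) over all genes and 0.18 over the tested genes of the set. It was 0.095 for the core of complex III, with Uqcrc1 and Uqcrc2 counted by name, 0.114 for the F1 head of complex V with its central stalk and 0.118 for the core of complex I. It was 0.246 for the supernumerary subunits of complex III and 0.277 for the peripheral stalk and membrane part of complex V. The steadiest subunits were Atp5c1 at 0.06, Uqcrfs1 at 0.066 and Atp5b at 0.078, and the least steady were Atp5h at 0.76, Ndufa5 at 0.459 and Cox7c at 0.439. Uqcrq ranged from 936.5 to 2019 FPKM and Cox7c from 499.1 to 1347 FPKM across libraries.

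The libraries lowest and highest in the set were also low or high in cytosolic ribosomal proteins, another class of short, abundant transcripts, with exceptions in the gap-matched group. The median deviation of the 71 tested genes of the set from their mean over all libraries was -0.13 (log2) in sedentary library 3, -0.15 and -0.16 in exercised libraries 2 and 4 and -0.21 in gap-matched library 3. The ribosomal proteins were at -0.49, -0.43, -0.34 and -0.23 in the same libraries. At the upper end, exercised libraries 3 and 5 stood at 0.20 for the subunits, with 0.12 and 0.30 for the ribosomal proteins, and sedentary library 5 at 0.15, with 0.31. Gap-matched library 2 had the highest ribosomal value, 0.37, with the subunits at 0.05, library 4 had 0.28 with 0.00, and library 1 had 0.11 with the subunits at -0.06. In gap-matched against sedentary livers 64 of 83 tested ribosomal protein genes were positive, at a median of 0.17, and none was called. The part of this shared movement in the differences of single subunits was not tested. Of 6 erythroid markers, Alas2 was listed at 0, which is not read as a lack of expression. Summed FPKM of the 6 ran from 790.7 to 1707 in sedentary livers, 916.6 to 1735 in exercised ones and 1527 to 2300 in gap-matched ones. None of the 4 erythroid markers tested was called. Their part in the differences was not tested either. Among the marker lists of hepatocytes, Kupffer, endothelial, stellate, bile duct and blood cells and fat, Cyp2e1 and Cfd were called higher in exercised than in sedentary livers, and no other marker was called in any comparison. Without adjustment 4 of 6 Kupffer markers were higher there at p under 0.05 (limma), at a list median of 0.38, beside 10.4% of all genes. In that comparison 7 of 7 endothelial and 9 of 10 hepatocyte markers were positive, while 4 of 6 stellate and 3 of 4 erythroid markers were negative. The part of cell makeup in the differences of the subunits was not tested.

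**Figure D5:**
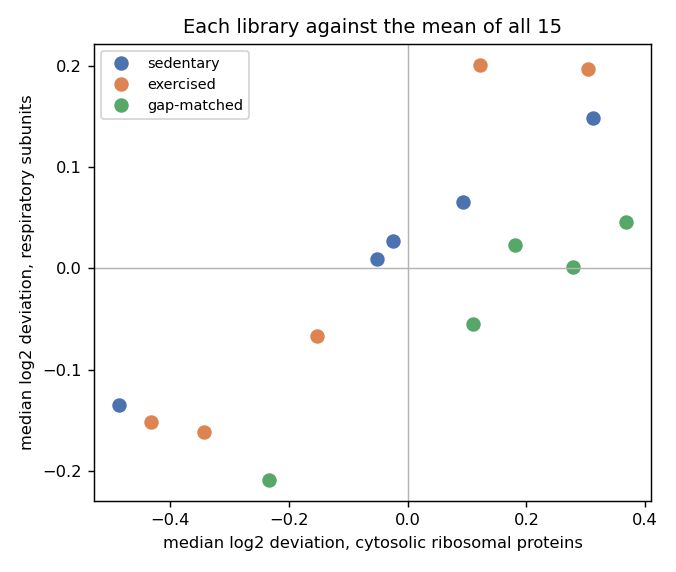
Median log2 deviation of the tested genes of the set in each library from their mean over all 15, against that of the cytosolic ribosomal proteins, with colours for the 3 groups. The lowest libraries lie low in both, and gap-matched libraries lie to the right of sedentary and exercised ones of like subunit level.

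Of complex II and cytochrome c, which join the complexes by electron transfer, all 6 genes were tested. Cyc1, cytochrome c1 of complex III by function but outside the name rule, was called lower in gap-matched than in sedentary livers, at 129.5 ± 5.47 against 168.3 ± 24.9 FPKM, with a difference of -0.37 ± 0.09 and an adjusted p of 0.0383 (limma). The call ended without sedentary library 2, 3, 4 or 5 or gap-matched library 1, 2, 4 or 5, with median of ratios scaling and with only the 2 groups fitted, at adjusted p-values of 0.0522 to 0.0901 (limma). The succinate dehydrogenase genes Sdha to Sdhd were negative in that comparison and not called. In the other comparisons none of the 6 was called.

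Of the ADP/ATP carriers, uncoupling proteins and porins, Slc25a5, the ubiquitous ADP/ATP carrier, was listed at 0. As with Ndufa1, Ndufb11 and Cox7b, this is not read as a lack of expression. In this list 8 genes were tested. All 8 were negative in exercised against sedentary livers, at a median of -0.23 beside 0.01 for all genes. In gap-matched against sedentary livers 7 were negative, at a median of -0.07 beside -0.03. There 3 of the 8 had every gap-matched library below every sedentary one, beside 4.56% of all genes. Vdac2, a porin of the outer membrane, was the only one called, lower in both, beside 3.26% and 2.23% of all genes. It was at 83.95 ± 5.22 FPKM in sedentary livers, 67.69 ± 6.49 FPKM in exercised ones and 63.49 ± 4.28 FPKM in gap-matched ones. Its difference from sedentary was -0.31 ± 0.08 with an adjusted p of 0.0364 in exercised livers and -0.40 ± 0.08 with an adjusted p of 0.0155 in gap-matched livers (limma). The first call ended without any 1 of sedentary libraries 1, 2, 4 and 5 or exercised libraries 1, 2 and 4, at adjusted p-values of 0.0501 to 0.0976, and the second without sedentary library 2, at 0.0526 (limma).

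Assembly factors build the complexes without staying in them. Of 35 tested, 2 were called lower in exercised than in sedentary livers, beside 3.26% of all genes. In gap-matched against sedentary livers 4 were lower and 1 higher, beside 2.23% and 0.82% of all genes, and none was called between exercised and gap-matched livers. Cox20, a chaperone of complex IV, was at 19.66 ± 3.01 FPKM in sedentary livers, 13.86 ± 1.42 FPKM in exercised ones and 14.07 ± 0.771 FPKM in gap-matched ones. Its differences from sedentary were -0.47 with an adjusted p of 0.0142 in exercised livers, kept under every alternative, and -0.44 with an adjusted p of 0.0266 in gap-matched livers (limma). Ndufaf3, an assembly factor of complex I, was at 17.84 ± 1.67, 13.82 ± 1.13 and 13.63 ± 1.23 FPKM, with adjusted p-values of 0.0278 and 0.0306 (limma). In gap-matched livers Cox10, which makes heme for complex IV, and Ecsit, a complex I factor, were lower by -0.40 and -0.32 (log2), with adjusted p-values of 0.0316 and 0.0487 (limma). Sco2, a copper carrier to complex IV, was higher by 0.60 with an adjusted p of 0.0454 (limma), at 138.2 ± 21.8 against 92.22 ± 20.3 FPKM. The gap-matched calls of Cox20 and Ndufaf3 ended without sedentary library 1, 2 or 5 or gap-matched library 1, 2 or 5, at adjusted p-values of up to 0.0696 and 0.0773, and the exercised call of Ndufaf3 without sedentary library 1, 2 or 5 or exercised library 1 or 4, at up to 0.0748 (limma). That of Cox10 ended without sedentary library 1, 2, 3 or 4 or gap-matched library 1, 2 or 5, at up to 0.086, that of Sco2 without sedentary library 1, 2, 4 or 5 or gap-matched library 1, 2, 3 or 5, at up to 0.1, and that of Ecsit without any 1 of the 10 libraries compared, at up to 0.12 (limma). Median of ratios scaling and quantile normalization each ended the gap-matched calls of Ndufaf3, at 0.0702 and 0.0667, and Ecsit, at 0.0758 and 0.0669, quantile normalization that of Cox10, at 0.0506, and scaling to the same sum that of Sco2, at 0.0616 (limma).

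Of 20 tested genes of mitochondrial biogenesis and DNA maintenance, 2 were called higher in exercised than in sedentary livers, beside 2.51% of all genes. The list as a whole leaned the other way in that comparison, with 13 of 20 negative at a median of -0.065 beside 0.01 for all genes. Without adjustment 2 were higher and 4 lower at p under 0.05 (limma). Against gap-matched livers 1 was called higher, beside 0.687% of all genes, and 13 of 20 were negative. No gene of the list was called lower. Esrra, the estrogen-related receptor that drives respiratory genes, was at 26.14 ± 3.06 FPKM in exercised, 19.93 ± 1.44 in sedentary and 18.64 ± 1.01 in gap-matched livers. Its differences were 0.37 ± 0.09 with an adjusted p of 0.0199 from sedentary and 0.46 ± 0.09 with an adjusted p of 0.0267 from gap-matched livers (limma). The first call ended without sedentary library 2, at an adjusted p of 0.062, and the second without exercised library 2 or 4 or gap-matched library 2, 4 or 5, at 0.0516 to 0.073 (limma). Both ended with libraries scaled to the same sum, at 0.0758 and 0.0531 (limma). Peo1, the helicase that unwinds mitochondrial DNA, was higher by 0.43 in exercised than in sedentary livers with an adjusted p of 0.0195, at 0.0515 without sedentary library 5 and 0.0547 with libraries scaled to the same sum (limma). Ppargc1a, its relative Ppargc1b, Nrf1, Gabpa and Tfam, the usual regulators of respiratory genes, were not called in any comparison. Of 76 mitochondrial ribosomal proteins, 7 were lower in exercised than in sedentary livers, beside 3.26% of all genes, at a list median of -0.17 beside 0.01 for all genes. In gap-matched against sedentary livers 1 was lower, beside 2.23%, at a median of -0.10 beside -0.03. Between exercised and gap-matched livers 1 was lower, beside 0.214%, at a median of -0.08 beside 0.04.

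Binding letters of known regulators were counted in the promoter windows of 300 bases. RefSeq windows were found for 71 of the 83 symbols, 62 of them tested genes, and for 8318 tested genes in all, among 33469 promoters. These 62 include Cox7a2l2, Cox7a2l and Atp5s, which are no structural subunits. AAGATGGC, bound by YY1, occurred on either strand in 22.6% of the tested genes of the set, 6.01% of all tested genes and 3.17% of all promoters. GCATGCGC, bound by NRF1, occurred in 11.3%, 5.37% and 2.47%. CCGGAAGT, bound by ETS factors such as GABPA, occurred in 12.9%, 9.25% and 3.81%. GGGCGGGG, bound by Sp1, was in fewer promoters of the set, at 12.9%, than in those of all tested genes, at 31.3%, or of all, at 15.2%. Cox7a2l and Atp5s were among the genes of the set that held it. TCAAGGTCA, bound by the estrogen-related receptors, was in 1 promoter of the set, that of Atp5g3, or 1.61%, beside 0.216% and 0.433%. The median GC content of these windows was 56.7%, 61% and 51.7% in the same order. These shares were not tested. Matches of different motifs overlapped each other in 0 of the 62 windows of tested genes of the set.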

How the data were processed

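Liver RNA was sequenced in 15 libraries, 5 in each of 3 groups, and the authors deposited 1 table of FPKM per gene and library. Per the submitters' processing notes, Cufflinks and Trimmomatic were used with the build Rnor_5.0. The aligner, tool versions and read totals are not given in the sources used here. Columns were tied to groups by the column name in each label. Of 26407 rows, 2 repeated identifiers and 2 genes with a placeholder value, Alb and Slc27a2, were left out.

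The name rule met 88 rows. Where a symbol had 2 rows, differing in letter case, the row with the higher mean FPKM was kept and 5 were left out. Genes that averaged 1 FPKM or more were fitted as log2(FPKM + 1) by limma (version 3.58.1, R version 4.3.3), trend on, with the 3 groups together and two-sided tests, with Benjamini-Hochberg adjustment and a threshold of 0.05. The code was tested on simulated data. FPKM are not counts, so no count model was used. No counting intervals can be given, since the depth behind each value is unknown.

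The members and gene lists were chosen with earlier results of these data known. Named are subunits that passed, in each comparison and complex the one with the smallest p, the highest and lowest of each complex, isoforms, and subunits under the filter. The subunits whose groups did not overlap were named after their values were seen, and so were the 3 genes on X. Of the other lists, genes that passed are named. Alternatives changed the pseudocount, filter, scaling, trend, weights, block, groups fitted, handling of repeated symbols and threshold, and left out each library. Promoters come from RefSeq (GRCr8), whose build differs from that of the table, and serve for sequence, names and chromosomes. The comparison of isoform proteins was not run.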

Additional observations from a re-analysis of the deposited data

Results flagged for a closer look

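Of 84 groups of 5 libraries looked at, 1 for each named subunit and group and each summed complex and group, 2 held a library that stood apart from the other 4, and chance alone gives about 1 in 20. Atp5sl in exercised livers had its highest library at 26.69 FPKM, while the other 4 lay between 21.82 and 23.17 FPKM. Cox6b1 in gap-matched livers had its lowest library at 121.5 FPKM, with the others at 142.4 to 149.9 FPKM. Neither gene was called in any comparison.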

How the results depend on the processing

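No subunit was called in exercised against sedentary livers under any alternative at a threshold of 0.05, nor in the fit as reported at 0.1. The threshold of 0.1 was tried on that fit alone, and the adjusted p of Atp5g1 fell as low as 0.0607 under another alternative (limma). In gap-matched against sedentary livers, where 1 was called, the count was 3 with libraries scaled to the same sum, 3 at a threshold of 0.1 and 0 to 1 when single libraries were left out. In exercised against gap-matched livers it was 2 at a threshold of 0.1 and 0 without any single library. The median difference of the 71 tested genes of the set was -0.0083, -0.0487 and 0.0382 (log2) in the 3 comparisons in that order. Without single libraries it ran from -0.066 to 0.0436, -0.1049 to -0.0166 and -0.0039 to 0.0838, so the first and the third changed sign. Every alternative stayed within 0.1343 of these values, the SD of single-library medians within groups. That spread is larger than the medians themselves, so staying within it does not show that they are stable.

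Over all genes, 648 were called in exercised against sedentary livers, 342 in gap-matched against sedentary and 101 in exercised against gap-matched. At a threshold of 0.1 these were 1108, 653 and 272. The third count was 53 with no filter, 34 with libraries scaled to the same sum and 19 with only the 2 groups fitted. Without single libraries the counts ran from 342 to 640, 147 to 354 and 18 to 131.

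Libraries that share a replicate number were not paired: the correlations of their deviations ran from -0.2672 to 0.1866, and 1 of 15 libraries correlated best with its own number. With the replicate number as a block, 201 genes were called in gap-matched against sedentary and 20 in exercised against gap-matched livers, and 0 subunits in gap-matched against sedentary livers, Atp5g1 being at an adjusted p of 0.0682 (limma). The block also ended the gap-matched against sedentary calls of Cyc1, at 0.0962, Vdac2, at 0.0531, Cox20, at 0.0781, Ndufaf3, at 0.0723, Cox10, at 0.0678, Ecsit, at 0.105, and Sco2, at 0.0562 (limma). In exercised livers it ended those of Vdac2, at 0.0859, Ndufaf3, at 0.0611, and Esrra, at 0.0525 against sedentary and 0.0755 against gap-matched (limma).

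Differences near 0 changed sign. For Uqcrc1, exercised against sedentary, the value was -0.0028 with libraries scaled to the same sum and -0.0051 and -0.0053 without exercised library 2 or 3, in a range of -0.0053 to 0.0661 without single libraries. For Atp5g2, exercised against gap-matched, it was -0.0198 with median of ratios scaling, -0.0104 without exercised library 1 and -0.0441 without gap-matched library 3, in a range up to 0.0847. For Atp5g3, exercised against sedentary, it was -0.036 without sedentary library 3 and -0.0018 and -0.0012 without exercised library 3 or 5, in a range up to 0.0906. For Cyc1, exercised against sedentary, it was 0.0232 without sedentary library 5, in a range down to -0.0929. None of these was called. The cause was not tested for any change.

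With only the 2 groups fitted, the calls of Vdac2, Ndufaf3 and Esrra in exercised livers and of Ndufaf3, Cox10, Ecsit and Sco2 in gap-matched livers ended too, at adjusted p-values of 0.0505 to 0.0887 (limma). Sco2 was also lost with no filter, at 0.0717, and with no mean trend, at 0.0518, and Ecsit with a pseudocount of 0.1, with no mean trend and with library weights, at 0.0506 to 0.0615 (limma). Of 44 differences followed through the alternatives, 22 kept their call and direction under every alternative run. Of 46 further differences of named genes, 19 changed sign under some alternative, at sizes of up to 0.081, and 0 were called. Read depth is unknown, which limits what low genes such as Atp5h can show.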
